A study of Mus musculus with 8 samples.

Results

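The SR and hnRNP splicing factors are the 31 protein-coding mouse genes whose symbols begin with Srsf (11 genes) or Hnrnp (20 genes), out of 55536 genes in the count tables, of which 21422 were classed as protein-coding. Membership was set by symbol alone and pseudogenes were left out, but earlier results of these data were known when the rule was chosen. Transcripts and ribosome footprints were sequenced from KRPC-A cells, a PDAC-like pancreatic tumour line from genetically engineered mice on a C57BL/6 background. The 4 groups in each assay were Gcn2 KO cells held for 1 h in leucine-free medium, Gcn2 KO cells held for 1 h in amino-acid-replete medium, and Gcn2 WT cells held in the same 2 media for the same time. Each group is 1 library per assay, 8 libraries in all, so no difference below was tested against variation between cultures. How the knockout was made, and whether the KO cells are a clone or a pool, is not given in the sources used here.

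Splicing joins exons by the removal of introns, and both families bind the unspliced RNA to influence which splice sites are used. SR proteins carry a domain rich in arginine and serine, are phosphorylated by SR protein and CLK kinases, and usually promote the use of the exons they bind. hnRNPs are abundant nuclear RNA packaging proteins and often repress exons, so the balance between the families is a long-used description of splicing state. Many SR genes, and several hnRNP genes, carry "poison" exons whose inclusion sends the transcript to nonsense-mediated decay, by which they limit their own expression. Gcn2 (gene symbol Eif2ak4) is the kinase that senses uncharged tRNA, phosphorylates eIF2α, lowers general translation initiation and raises translation of the Atf4 mRNA. The comparisons address whether the splicing factors differ in transcript level or in ribosome occupancy after leucine removal, and whether Gcn2 matters for it.

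Protein-coding reads numbered 31362456 to 41919022 in the RNA-seq libraries and 2425485 to 9251125 in the footprint libraries, with the WT leucine-free footprint library the shallowest. Values are counts scaled to 1e6 protein-coding reads per library (CPM) with scaling factors from within each assay, and every interval is a 95% interval for counting error only. Eif2ak4 RNA stood at 16.7 and 13.6 CPM in leucine-free and replete KO cells, against 69.7 and 85.7 CPM in leucine-free and replete WT cells, so the transcript was reduced but still counted in KO cells. Atf4 footprints stood at 212 and 199 CPM in leucine-free and replete KO cells, against 528 and 172 CPM in leucine-free and replete WT cells. Of 8 duct and epithelium markers, 5 had at least 1 CPM in every RNA library, while Epcam had no RNA read in any of them and Krt19 and Muc1 stayed near or below 1 CPM. The summed duct and epithelium level was 1089 and 473 CPM in leucine-free and replete KO cells and 323 and 234 CPM in leucine-free and replete WT cells, largely through Sox9 and Krt18, and its part in the results below was not tested. Of 6 mesenchyme markers 3 reached 1 CPM throughout, led by Vim, and the 6 summed to between 1144 and 1603 CPM. None of 6 acinar and none of 5 immune and endothelial markers did so, and their sums stayed below 1 CPM in all RNA libraries.

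Genes averaging at least 30 reads across the 4 RNA or the 4 footprint libraries were called measured in that assay. By this rule 30 members were measured in RNA (10 SR and 20 hnRNP) and 29 in footprints (10 SR and 19 hnRNP), among 10816 and 9171 protein-coding genes. Srsf12 had 0 reads in all 8 libraries, which allows at most 0.0967 CPM in the RNA libraries. Hnrnpa3 was measured in RNA only, since it had 7 and 11 footprints in leucine-free and replete KO cells and 2 and 20 in leucine-free and replete WT cells. Reads matching several places were not counted, and Hnrnpa1 and Hnrnpa3 have near-identical processed copies elsewhere in the mouse genome, so their levels are uncertain. Reads in exons shared with another gene were not counted either, which touches 43.0% of the exonic bases of Srsf4, 29.1% of Hnrnpab, 26.5% of Hnrnpf, 25.3% of Srsf2 and 14.7% of Hnrnpm. Counting did not use strand, so antisense reads cannot be told apart in the rest of these genes.

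Both families were well above the typical gene. Per kilobase of exon, the median member in RNA stood at 40.5 and 36.9 CPM per kb for SR genes in leucine-free and replete KO cells, and at 49.6 and 37.4 CPM per kb in leucine-free and replete WT cells. The hnRNP medians in the same order of groups were 31.3, 30.6, 39.6 and 36.5 CPM per kb, while the median of all measured genes lay between 7.45 and 7.63 CPM per kb. Within each family the levels spread widely.

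Srsf1, the founding SR protein and a known oncogene, was the most abundant SR transcript, at 394 and 348 CPM per kb of exon in leucine-free and replete KO cells and 291 and 236 CPM per kb in leucine-free and replete WT cells. Hnrnpa2b1, a core protein of the particles that package nascent RNA, had the highest counted hnRNP transcript level. The uncertain levels of Hnrnpa1 and Hnrnpa3 could not be ranked against it. Hnrnpa2b1 stood at 322 and 276 CPM per kb in KO cells and 282 and 274 CPM per kb in WT cells, in the same order of media. Srsf1 thus stood above Hnrnpa2b1 in the 2 KO RNA libraries and in the WT leucine-free one, and below it in WT replete cells. Srsf4 had the lowest level per kb of the measured members, at 2.30 and 1.45 CPM per kb in leucine-free and replete KO cells. In WT cells it stood at 1.70 and 1.97 CPM per kb, in the same order of media. The division used all its exonic bases, although reads in 43.0% of them were not counted, so its rank is uncertain. Next lowest were Hnrnph3 in KO cells, at 2.68 and 2.60 CPM per kb, and Hnrnpf in WT cells, at 3.07 and 3.62 CPM per kb, in the same order of media. In footprints the order was different, with Hnrnpab first at 394 and 333 CPM per kb in KO and 354 and 354 CPM per kb in WT cells, while Srsf1 stood between 83.2 and 91.7 CPM per kb. These footprint values too were divided by all exonic bases, untranslated regions included. Without division by length Hnrnpu stood above Hnrnpab, at 2900 against 986 CPM in WT replete cells.

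**Figure D1:**
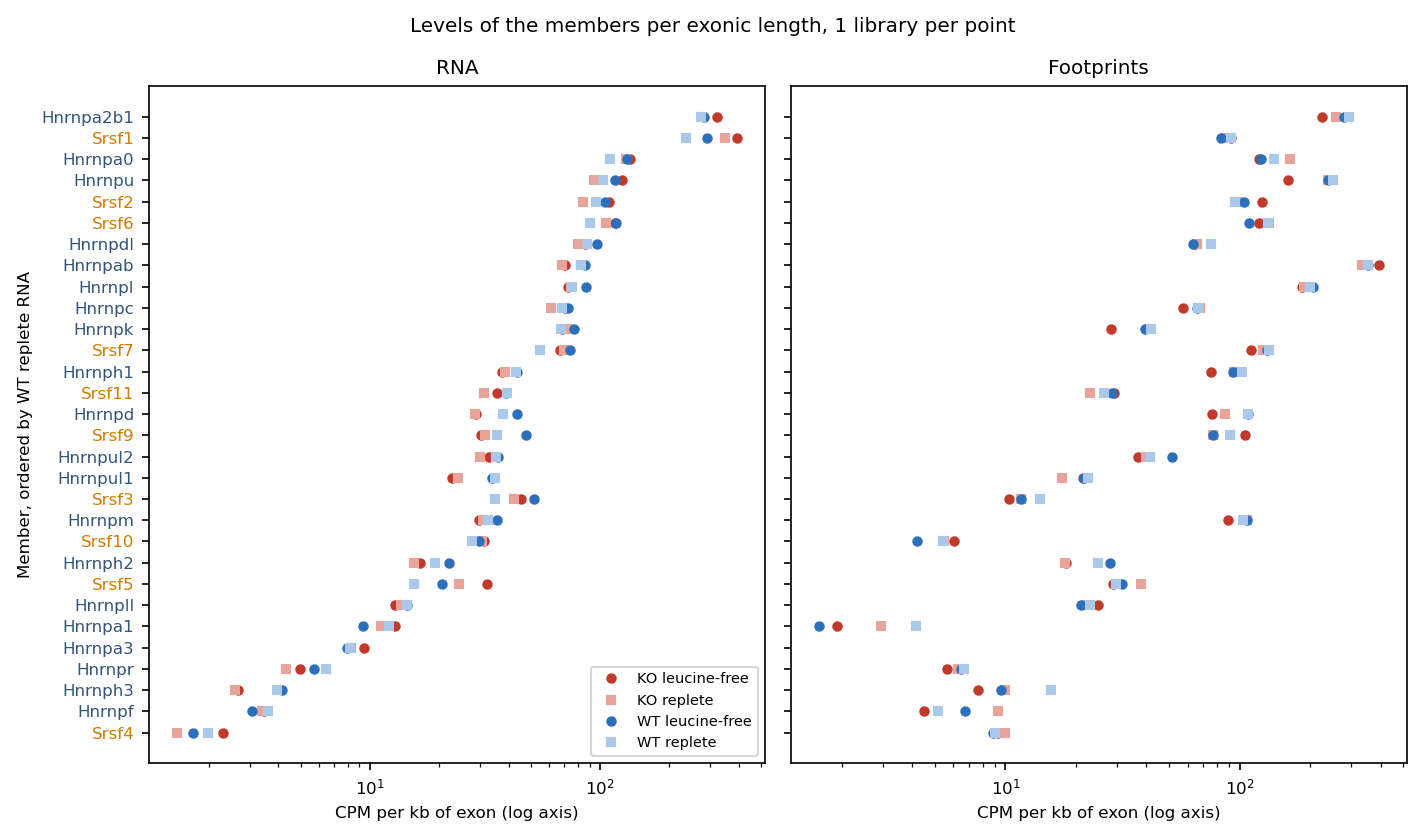
RNA (left) and footprint (right) levels of the measured members in CPM per kilobase of exon on a log axis, with 1 point per library and members ordered by their WT replete RNA level. Per kilobase of exon, Hnrnpa2b1 and Srsf1 lead in RNA and Hnrnpab leads in footprints. The 4 libraries of most members lie close together compared with the spread between members.

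The number of footprints per RNA, here called translation efficiency (TE) and given as the log2 of footprint CPM over RNA CPM, separated the members widely. In WT replete cells the SR genes ran from -2.35 for Srsf10 to 2.20 for Srsf4, and the hnRNP genes from -1.54 for Hnrnpa1 to 2.09 for Hnrnpab. The low end was held by Srsf10 (a splicing repressor activated by dephosphorylation), Hnrnpa1, Srsf1 and Srsf3 in all 4 pairs of libraries. On a linear scale Srsf1 had 0.233 and 0.249 footprint CPM per RNA CPM in leucine-free and replete KO cells, and 0.286 and 0.388 in leucine-free and replete WT cells. Srsf3, the smallest SR protein, had a log2 TE of -2.13 and -1.86 in leucine-free and replete KO cells, and of -2.14 and -1.31 in leucine-free and replete WT cells. Both were therefore lower in KO than in WT cells in replete medium, and lower without leucine in each genotype. The RNA count includes transcripts that stay in the nucleus or are not translated, as well as untranslated regions, so TE values of different genes are not rates of protein synthesis. For Hnrnpa1, reads matching several places were left uncounted in both assays. Their effect on its TE was not tested, so its low position is uncertain. Hnrnpa3, under the same limit, had 1853 RNA reads and 20 footprints in WT replete cells. In replete medium the highest values of both genotypes belonged to Srsf4, Hnrnpab and Hnrnph3, the first of which rests on 198 to 295 RNA reads per library and shares much of its exon sequence with an antisense gene.

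As a family, the median log2 TE of SR genes was -0.06 and 0.28 in leucine-free and replete KO cells, and -0.05 and 0.28 in leucine-free and replete WT cells. The hnRNP median was 0.19 and 0.54 in KO cells, and 0.53 and 0.37 in WT cells, in the same order of media. The median of the 9099 genes measured in both assays lay between 0.01 and 0.04. SR genes were thus below hnRNP genes at the median in all 4 pairs, with wide overlap of the families.

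**Figure D2:**
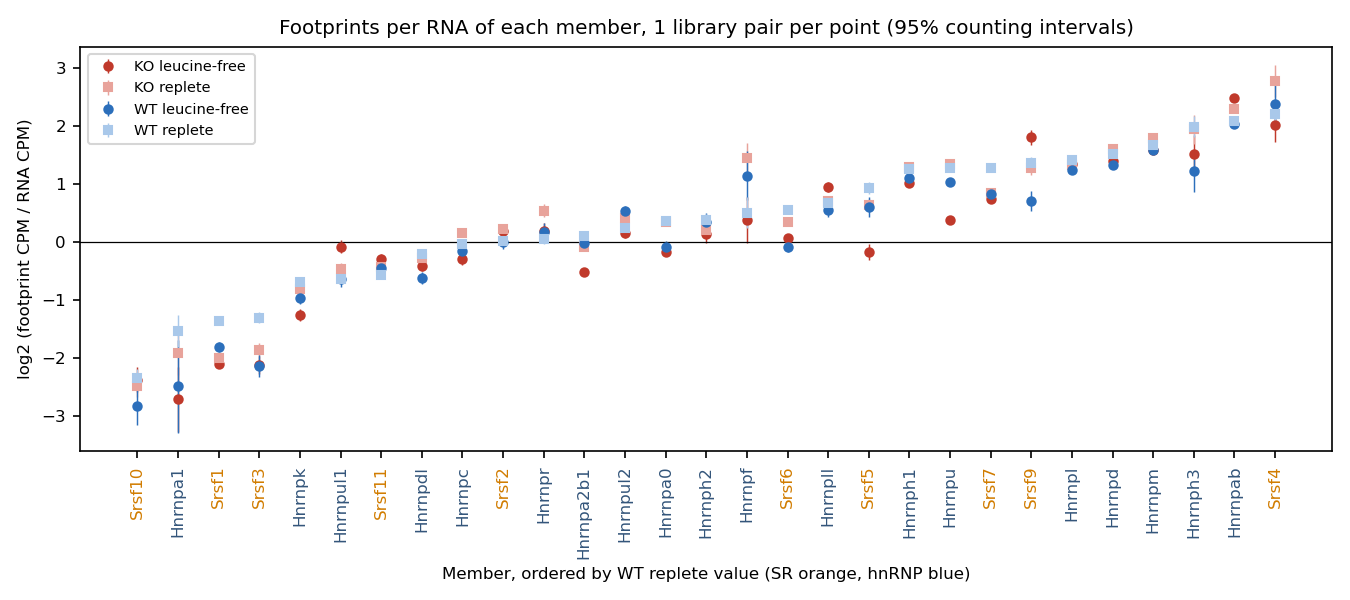
Log2 of footprint CPM over RNA CPM for each of the 29 members measured in both assays, ordered by the WT replete value, with red for KO, blue for WT, dark circles for leucine-free and pale squares for replete cells and 95% counting intervals as bars. Srsf10, Hnrnpa1, Srsf1 and Srsf3 hold the low end in every group, and the 4 values of Srsf9, Hnrnpf, Hnrnpu and Srsf5 lie visibly apart. The place of Hnrnpa1 is uncertain, since reads matching several places were not counted.

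The balance of the families was described first by summing reads. SR genes made up 38.0% (37.8 to 38.2, exact Clopper-Pearson interval) of the RNA reads of both families in KO leucine-free cells and 37.7% (37.6 to 37.9) in KO replete cells, against 34.3% (34.2 to 34.5) in WT leucine-free cells and 31.4% (31.2 to 31.5) in WT replete cells. In footprints the SR share was lower throughout, at 21.6% (21.3 to 22.0) in KO leucine-free cells, 18.8% (18.5 to 19.1) in KO replete cells, 17.6% (17.2 to 18.1) in WT leucine-free cells and 18.2% (18.0 to 18.4) in WT replete cells. In RNA both KO libraries thus stood above both WT libraries, and in footprints the KO leucine-free library stood above the other 3. In bulk lysates fewer cells expressing a gene and less RNA per cell cannot be told apart.

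**Figure D3:**
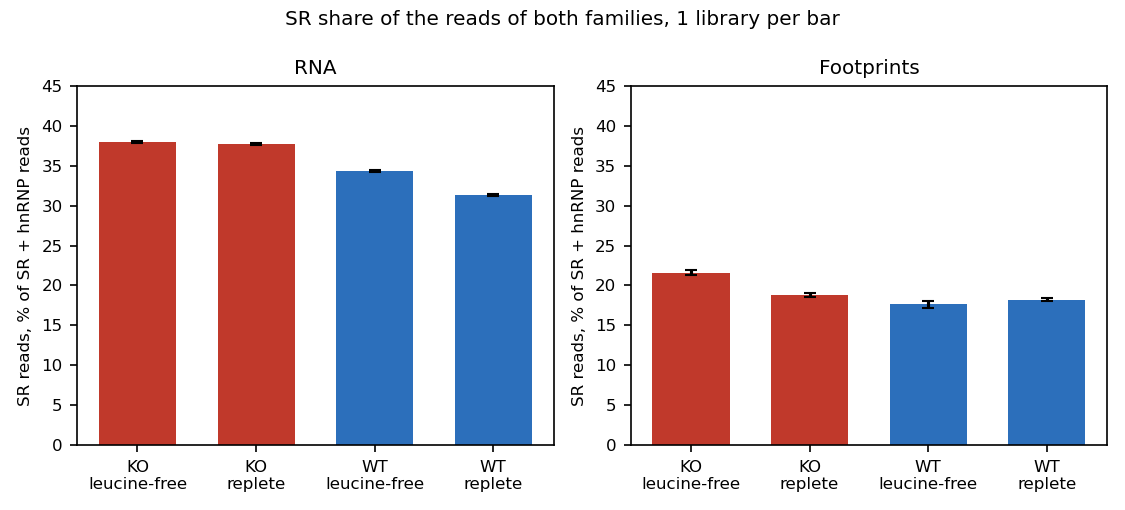
SR reads as a percentage of SR plus hnRNP reads in each RNA library (left) and each footprint library (right), with exact 95% binomial intervals as error bars. The RNA share is 38.0% in KO leucine-free and 31.4% in WT replete cells, and the footprint share is highest in KO leucine-free cells, at 21.6%, and lowest in WT leucine-free cells, at 17.6%.

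Expressed as a ratio of SR to hnRNP reads, leucine removal was accompanied in KO cells by a log2 difference of 0.02 in RNA, 0.25 in footprints and 0.24 in TE. In WT cells the same comparison gave 0.19 in RNA, -0.06 in footprints and -0.25 in TE. With all members summed, the TE balance thus went to SR genes in KO and to hnRNP genes in WT cells, a KO minus WT difference of 0.49 (0.42 to 0.55). Srsf1 held 42.3% of the SR reads in WT replete RNA and Hnrnpa2b1 25.9% of the hnRNP reads, so these sums weigh a few genes heavily. In footprints Hnrnpu held the most hnRNP reads, with 8032 of 40008 in KO leucine-free and 17995 of 70542 in KO replete cells. In WT cells it held 6614 of 27044 and 26337 of 105600, in the same order of media. The log2 TE ratio of Hnrnpu itself was -0.96 in KO and -0.24 in WT cells for leucine-free over replete medium. The footprint and TE balances, the KO minus WT difference included, were not computed without Hnrnpu, so their size rests in part on this gene. Srsf1 and Hnrnpa2b1 were the most counted members of their families over all 8 libraries together. With both left out, the log2 RNA ratio of KO over WT was 0.09 in place of 0.23 in leucine-free medium. In replete medium it was 0.23 in place of 0.41. Its TE counterparts were 0.25 in place of 0.13 in leucine-free medium and -0.18 in place of -0.35 in replete medium. These sums kept the members most counted in footprints, Hnrnpu and Srsf6.

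In KO cells the SR transcripts were on the whole slightly higher after 1 h without leucine. The median log2 ratio of leucine-free over replete RNA was 0.16 for SR genes and 0.05 for hnRNP genes, beside 0.00 for all genes. Srsf4 was highest at 0.66 (0.39 to 0.94), from 8.19 CPM in KO leucine-free and 5.17 CPM in KO replete cells, and was the only member past 1.5-fold in RNA, meaning a ratio of that size with an interval that excludes 0, 1 of 30 against 8.92% of all genes. None passed 2-fold, where 3.17% of all genes did. Srsf5, an SR protein that binds exonic enhancers, stood at 0.42, and Srsf2 at 0.37 (0.33 to 0.41). Srsf9 and Srsf7 were lowest, at -0.07 and -0.06, and Srsf3 stood at 0.10 (0.07 to 0.14). Hnrnpu, which also organises chromatin, led the hnRNP genes at 0.39, followed by Hnrnpa2b1 at 0.22, while Hnrnpul1 at -0.09 and Hnrnpk, which binds C-rich RNA, at -0.08 were lowest and Hnrnpa1 stood at 0.20.

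In KO footprints the hnRNP genes were lower in the leucine-free library. The median log2 ratio was -0.00 for SR and -0.21 for hnRNP genes, beside 0.00 for all genes, with the interval below 0 for 3 of 10 SR and 11 of 19 hnRNP genes, against 22.2% of all genes. Hnrnpf passed 2-fold, 1 of 29 members against 2.18% of all genes, and was also the only one past 1.5-fold, against 11.0% of all genes. It had 59 footprints in KO leucine-free and 184 in KO replete cells, 13.7 and 28.4 CPM, against 20.5 CPM in WT leucine-free and 15.6 CPM in WT replete cells. The KO replete library was the highest of the 4 for this gene, and the log2 ratio in KO cells was -1.04 (-1.50 to -0.62). Its RNA stood at 10.6 and 10.4 CPM in leucine-free and replete KO cells and 9.35 and 11.0 CPM in leucine-free and replete WT cells. Scaling by total counts, or a prior count of 5 (-0.97), put the footprint ratio just short of 2-fold. Hnrnpa1 stood at -0.60 (-1.34 to 0.07) and Hnrnpul1 and Hnrnpab were highest, at 0.29 and 0.24. Among SR genes Srsf9 at 0.46 and Srsf2 at 0.34 were highest and Srsf5 at -0.40 and Srsf3 at -0.17 lowest.

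Hnrnpu footprints stood at 1867 CPM in KO leucine-free, 2773 in KO replete, 2768 in WT leucine-free and 2900 in WT replete cells. The KO leucine-free library was thus apart from the other 3, with a log2 ratio in KO cells of -0.57 (-0.61 to -0.53). Its RNA stood at 1437 CPM in KO leucine-free and 1095 in KO replete cells, and at 1348 in WT leucine-free and 1195 in WT replete cells. TE of Hnrnpu in KO cells was accordingly -0.96 on the log2 scale (-1.01 to -0.92), just short of 2-fold.

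For TE in KO cells the medians were -0.10 for SR and -0.27 for hnRNP genes, beside -0.01 for all genes. The interval lay below 0 for 6 of 10 SR and 14 of 19 hnRNP genes, against 25.5% of all genes. Hnrnpf was the only member past 2-fold, at -1.07 (-1.55 to -0.60), against 2.93% of all genes, and 5 of 29 (17.2%) passed 1.5-fold, against 15.9% of all genes. After Hnrnpf and Hnrnpu these were Srsf5 at -0.82, Hnrnpa1 at -0.80 (-1.47 to -0.13) and Srsf4 at -0.75. Srsf5 footprints stood at 115 and 151 CPM in leucine-free and replete KO cells and its RNA at 129 and 96.8 CPM, so RNA was higher and footprints were lower without leucine. Highest were Srsf9 at 0.53 and Srsf11 at 0.14 in the SR family, and Hnrnpul1 at 0.38 and Hnrnpll, known for switching Cd45 exons in lymphocytes, at 0.24 among hnRNP genes. Srsf2 stood at -0.03 and Srsf3 at -0.27.

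In WT cells, removal of leucine for 1 h went with higher SR transcript levels. The median log2 ratio of leucine-free over replete RNA was 0.34 for the 10 SR genes and 0.06 for the 20 hnRNP genes, beside 0.00 for all measured genes. The counting interval lay wholly above 0 for 8 of 10 SR genes and 11 of 20 hnRNP genes, against 32.0% of all genes, and wholly below 0 for none of the SR and 4 of the hnRNP genes, against 31.1% of all genes. Srsf3 stood at 408 CPM in WT leucine-free and 275 CPM in WT replete cells, a log2 ratio of 0.57 (0.53 to 0.60). Srsf7, which shares with Srsf3 a role in mRNA export and 3′ end choice, followed at 0.43, and Srsf9, Srsf5, Srsf6 and Srsf1 stood between 0.30 and 0.42, with Srsf5 at 0.42 in both genotypes. The canonical SR genes with a single RNA-binding motif (Srsf2, Srsf3, Srsf7) had a median of 0.43 and those with a pair of motifs (Srsf1, Srsf4, Srsf5, Srsf6, Srsf9) one of 0.37. Srsf4 at -0.22 (-0.47 to 0.03) and Srsf11 at -0.01 were the lowest SR genes, and Srsf2, which binds exonic enhancers and is recurrently mutated in myeloid cancers, stood at 0.14 (0.10 to 0.18).

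Among hnRNP genes Hnrnpa0 was highest, at 0.25, with Hnrnph2 next at 0.21. Hnrnpa1, the best known exon repressor of the family, was lowest at -0.38 (-0.49 to -0.27), from 29.3 CPM in WT leucine-free and 38.1 CPM in WT replete cells, and Hnrnpf followed at -0.24. No member passed 2-fold in RNA, where 1.70% of all measured genes did, and none passed 1.5-fold, where 6.55% did. Over all genes this RNA ratio was lower for longer transcripts (Spearman's rho with exonic length -0.38 across 10816 genes, as a description), and SR genes were shorter, with a median of 3988 exonic bases against 5898 in hnRNP genes. With the length trend removed, the SR median stood 0.19 above the hnRNP median, in place of 0.28.

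Footprints of the WT cells did not carry the same pattern. The median log2 ratio of leucine-free over replete footprints was -0.09 for SR genes and -0.05 for hnRNP genes, beside 0.01 for all genes. Hnrnpa1 alone passed 2-fold, 1 of 29 members against 1.47% of all genes, with 12 footprints in WT leucine-free and 119 in WT replete cells, 5.02 and 13.1 CPM, and a log2 ratio of -1.33 (-2.38 to -0.53). The call was lost with a prior count of 5, which gave -0.94, and with a mean count minimum of 100, under which the gene was not measured. Hnrnph3, of the F/H group that binds G-rich RNA, was next at -0.71 (-1.09 to -0.35), and these 2 were the members past 1.5-fold, against 7.01% of all genes. Hnrnpf at 0.40 (-0.11 to 0.87) and Hnrnpul2 at 0.31 were the highest hnRNP genes. In the SR family Srsf2 and Srsf11 were highest, both at 0.12, and Srsf10 at -0.37 and Srsf6 at -0.28 lowest, with Srsf3 at -0.26 (-0.48 to -0.05).

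Footprints per RNA were lower for most members in leucine-free WT cells, as they were in leucine-free KO cells. The median log2 ratio of TE was -0.45 for SR genes and -0.12 for hnRNP genes, beside -0.01 for all genes. Over all genes this TE ratio was higher for longer transcripts (Spearman's rho with exonic length 0.33 across 9099 genes, as a description), and SR genes were shorter. With the length trend removed the gap between the family medians was smaller, as given below. The interval lay below 0 for 7 of 10 SR genes and 11 of 19 hnRNP genes, against 22.9% of all genes. No member passed 2-fold, where 2.90% of all genes did, and 6 of 29 (20.7%) passed 1.5-fold, against 15.0% of all genes. Srsf3 was the lowest SR gene at -0.83 (-1.04 to -0.62), followed by Srsf9 at -0.66 and Srsf6 at -0.65, while Hnrnpa1 at -0.95 (-1.80 to -0.10) and Hnrnph3 at -0.77 (-1.17 to -0.37) were the lowest hnRNP genes. Above 0 stood Hnrnpf at 0.64 (0.13 to 1.15), Hnrnpul2 at 0.29, Srsf4 at 0.18 (-0.25 to 0.62), Hnrnpr at 0.13 (-0.05 to 0.31) and Srsf11 at 0.13 (-0.01 to 0.26). Srsf2 stood at -0.02 (-0.14 to 0.11). For Srsf3, Srsf9 and Srsf6 the RNA ratio was above 0 and the footprint ratio below 0, and each TE ratio combined both.

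**Figure D4:**
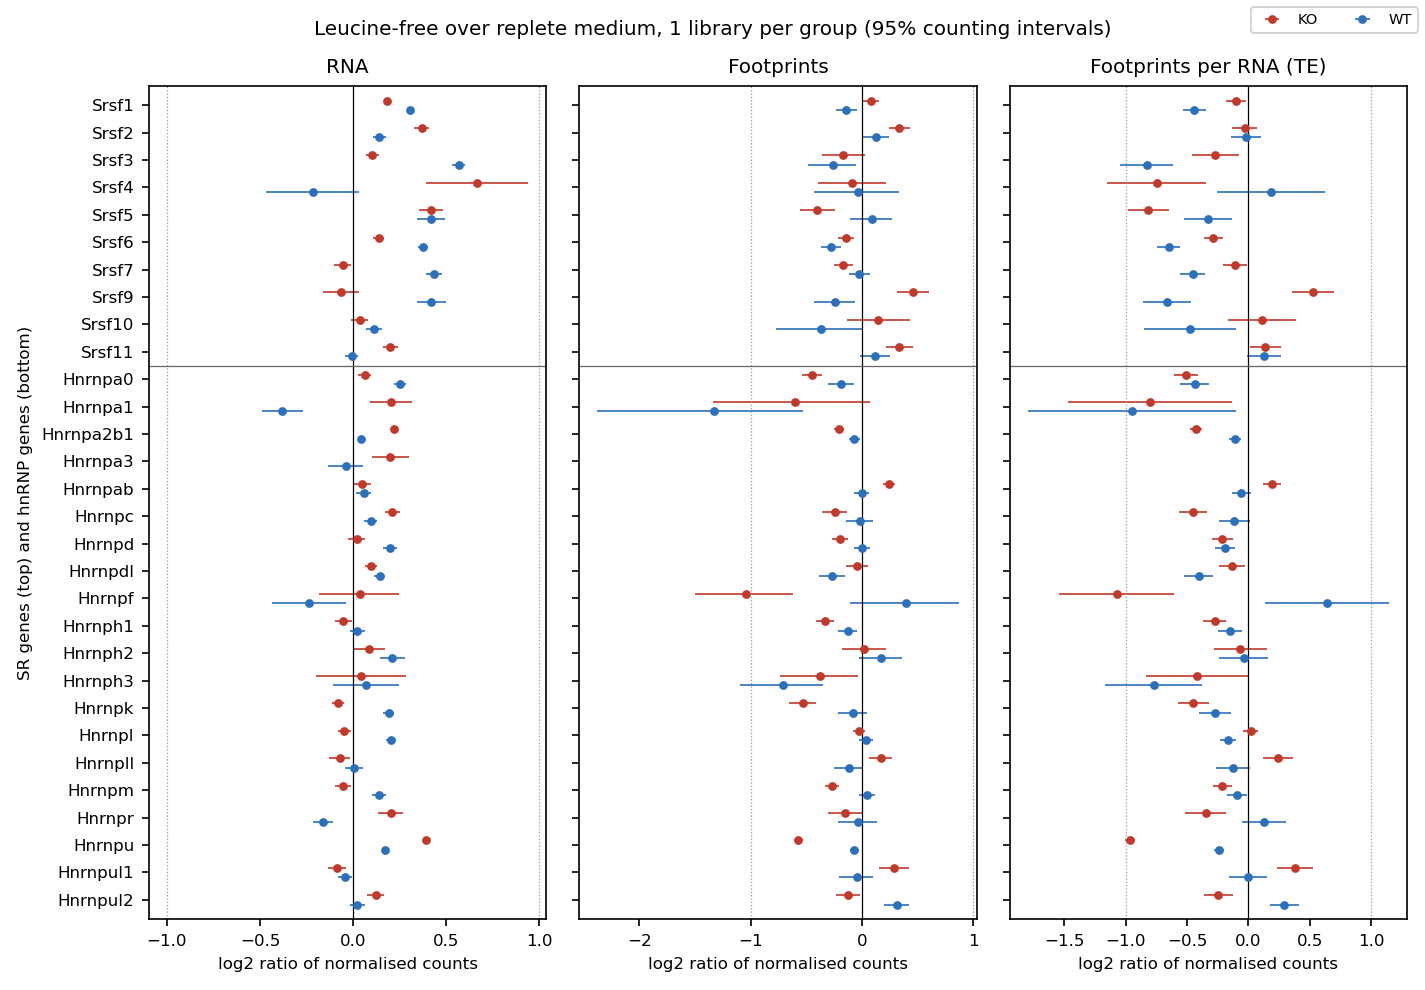
Log2 ratios of leucine-free over replete medium for RNA, footprints and TE (left to right), for each measured member in KO (red) and WT (blue) cells, with 95% counting intervals as bars and dotted lines at 2-fold. In RNA, Srsf3, Srsf7 and Srsf9 lie further right in WT than in KO cells, and in TE Hnrnpf, Srsf9 and Hnrnpu show separated KO and WT values.

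Because Srsf3, Srsf5, Srsf9, Hnrnpa1 and Hnrnpu were among the members with the largest TE ratios, their transcript starts are shown. A run of pyrimidines that begins with C at the start of a transcript marks mRNAs, such as those of ribosomal proteins, whose translation follows nutrient supply through mTOR. The windows below hold 10 bases before and 20 bases from the annotated RefSeq start on (build GRCm38.p6, given 5′ to 3′ on the gene's strand). The first 5 bases from that start are in capitals. The Ensembl gene models used for counting begin elsewhere for some of these genes. They begin at 80945504 for Srsf5, just after its capitals, and at 103240432 for Hnrnpa1, after its window. For Srsf3 they begin at 29032628, before its window, and for Hnrnpu at 178337797, inside its window past the capitals. The letters at the start of these genes thus depend on the annotation. Hnrnpa0 is added because it and Srsf5 are the members whose annotated start holds the pattern searched.
Srsf3 (chr17:29032650-29032679, plus strand): gggcgaggggACGGTggtggtccgccattt
Srsf5 (chr12:80945489-80945518, plus strand): caggacgtccCTTCCattttgtgcaacgtc
Srsf9 (chr5:115327167-115327196, plus strand): acaatgcagtGCGGCtgagcgcctcgggag
Hnrnpa0 (chr13:58128537-58128566, minus strand): cttcagcggcCTCTTtgtgtggtgtcccga
Hnrnpa1 (chr15:103240387-103240416, plus strand): agagcgaggaGGCGGgataaaagggcgagc
Hnrnpu (chr1:178337796-178337825, minus strand): cggggcgcctATATTacgtgcgcggcgccg
A start was annotated for 29 of the 31 members, all but Hnrnpll and Hnrnpul2. The pattern searched was C as the first base followed by 4 bases that are each C or T. It was searched on the gene's strand at the annotated RefSeq start only, and not at the Ensembl starts. It was found for Srsf5 (CTTCC) and Hnrnpa0 (CTCTT) and for no other member, and 2.89% of genes measured in both assays had it at one or more starts. TE of Hnrnpa0 was -0.51 in KO and -0.44 in WT cells on the log2 scale of leucine-free over replete, and that of Srsf5 -0.82 in KO and -0.33 in WT cells, so both were below 0 in both genotypes. Srsf3, Hnrnpa1 and Hnrnpu have other letters at these starts and were also below 0 in both genotypes. Srsf9, which has other letters too, stood at 0.53 in KO and -0.66 in WT cells. Hnrnpf has several annotated starts, none with the pattern, and its windows are not printed; it stood at -1.07 in KO and 0.64 in WT cells.

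The leucine ratios of KO and WT cells were set against each other as a KO minus WT difference. Medians for RNA were -0.10 in SR and -0.03 in hnRNP genes, for footprints 0.17 in SR and -0.15 in hnRNP genes, and for TE 0.34 in SR and -0.07 in hnRNP genes, beside values between -0.02 and 0.00 for all genes. In RNA no member passed 2-fold (4.66% of all genes) and Srsf4 alone passed 1.5-fold, at 0.88 (0.52 to 1.24), against 12.6% of all genes. Hnrnpa1 at 0.58 and Hnrnpr at 0.36 were the highest hnRNP genes, and Srsf2 at 0.23 the next SR gene. Srsf7 and Srsf9, both at -0.49, and Srsf3 at -0.46 were lowest in the SR family, since their higher RNA without leucine was seen in WT and not, or less, in KO cells. Hnrnpk at -0.27 and Hnrnpl, which binds CA repeats, at -0.25 were the lowest hnRNP genes.

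In footprints Hnrnpf passed 2-fold at -1.44 (-2.07 to -0.81), 1 of 29 members against 4.58% of all genes, and together with Srsf9 at 0.70 (0.47 to 0.93) made up the 2 members past 1.5-fold, against 15.2%. Hnrnpu was next lowest at -0.50, Hnrnpa1 was highest in its family at 0.73 (-0.34 to 1.80) with Hnrnpul1 at 0.34, and in the SR family Srsf10 stood at 0.51, Srsf5 at -0.49 and Srsf7 at -0.14. Srsf2 stood at 0.21 and Srsf3 at 0.10 (-0.19 to 0.38). Of these, the intervals of Srsf3 and Hnrnpa1 included 0.

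In TE 2 of 29 members passed 2-fold, against 7.83% of all genes, and 5 of 29 (17.2%) passed 1.5-fold, against 21.8%. Hnrnpf stood at -1.71 (-2.40 to -1.02), with TE lower without leucine in KO and higher in WT cells. Srsf9, an SR protein close in sequence to Srsf1, stood at 1.19 (0.93 to 1.45), and at 0.99, short of 2-fold, with the trend on exonic length removed. Its footprints were 175 CPM in KO leucine-free, 127 in KO replete, 128 in WT leucine-free and 151 in WT replete cells, and its RNA 50.1, 52.4, 78.6 and 58.7 CPM in the same groups. Srsf9 therefore had its highest footprint level in the KO leucine-free library, and less RNA in both KO libraries than in both WT libraries. Its RNA intervals in leucine-free (47.6 to 52.6 CPM) and replete (50.1 to 54.7 CPM) KO cells overlapped. Srsf10 at 0.59 (0.12 to 1.05) and Srsf3 at 0.56 (0.27 to 0.85) were the next highest, Srsf4 at -0.93 (-1.53 to -0.34) and Srsf5 at -0.49 the lowest SR genes. Hnrnpu at -0.72 followed Hnrnpf, Hnrnpul1 at 0.38 and Hnrnpll at 0.36 were the highest hnRNP genes, and Hnrnpa1 at 0.15 (-0.93 to 1.23) and Srsf2 at -0.01 were near 0.

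Between genotypes in leucine-free medium, the transcript medians of log2 ratios of KO over WT were 0.02 for SR and -0.18 for hnRNP genes, beside 0.01 for all genes. Srsf5 stood at 0.65 as in replete medium, from 129 CPM in KO leucine-free and 82.4 CPM in WT leucine-free cells, and Srsf4 and Srsf1 both at 0.44. Srsf9 at -0.65 and Srsf3 at -0.19 were the lowest SR genes, the second of them on the other side of 0 from replete medium. Hnrnph3 at -0.63 and Hnrnpd, known as AUF1 for its binding of AU-rich decay elements, at -0.59 were the lowest and Hnrnpa1 at 0.47 and Hnrnpa3 at 0.25 the highest hnRNP genes, and Srsf2 stood at 0.05. No member passed 2-fold, against 8.39% of all genes, and 4 of 30 (13.3%) passed 1.5-fold, against 21.4%.

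In leucine-free footprints the families stood 0.37 apart, with medians of KO over WT of 0.11 for SR and -0.26 for hnRNP genes, beside -0.01 for all genes. The interval lay above 0 for 5 of 10 SR and 2 of 19 hnRNP genes (22.8% of all genes), and below 0 for 1 of 10 SR and 11 of 19 hnRNP genes (24.1% of all genes). Srsf10 at 0.52 (0.13 to 0.95) and Srsf9 at 0.45 were highest, Srsf7 at -0.22 and Srsf3 at -0.18 lowest in the SR family, and Srsf2 stood at 0.25. Hnrnph2 at -0.62 and Hnrnpf at -0.58 (-1.15 to -0.00) were the lowest hnRNP genes, with Hnrnpll and Hnrnpa1 highest, both at 0.24, and the interval of Hnrnpa1 ran from -0.77 to 1.39. No member passed 2-fold (7.22% of all genes) and 1, Hnrnph2, passed 1.5-fold (21.8% of all genes).

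TE in leucine-free medium had medians of 0.08 for SR and -0.08 for hnRNP genes, beside 0.00 for all genes. Srsf9 at 1.10 (0.89 to 1.31) was the only member past 2-fold, 1 of 29 against 5.90% of all genes, and 4 of 29 (13.8%) passed 1.5-fold, against 20.8%. Srsf10 at 0.45 followed, and Srsf5 at -0.78 and Srsf4 at -0.36 (-0.84 to 0.11) were lowest in the SR family. Hnrnpul1 at 0.56 and Hnrnpab at 0.44 were the highest and Hnrnpf at -0.76 (-1.35 to -0.18) and Hnrnpu at -0.66 the lowest hnRNP genes. Srsf2 stood at 0.20, Srsf3 at 0.01 and Hnrnpa1 at -0.23 (-1.21 to 0.75).

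In replete medium SR transcripts were higher and hnRNP transcripts lower in KO cells at the median, with log2 ratios of KO over WT of 0.19 and -0.13, beside 0.00 for all genes. The interval lay above 0 for 6 of 10 SR and 2 of 20 hnRNP genes, against 37.3% of all genes, and below 0 for 4 of 10 SR and 14 of 20 hnRNP genes, against 37.0%. Srsf5 led at 0.65, from 96.8 CPM in KO replete and 61.8 CPM in WT replete cells, followed by Srsf1 at 0.56, from 1989 CPM in KO replete and 1347 CPM in WT replete cells. Srsf4 at -0.44 and Srsf11 at -0.34 were the lowest SR genes. Hnrnph3 at -0.60 (-0.81 to -0.40) and Hnrnpr at -0.57 were the lowest hnRNP genes, and Hnrnpa0 at 0.24 and Hnrnpk at 0.09 the highest. Srsf3 stood at 0.27, Srsf2 at -0.18 and Hnrnpa1 at -0.12. No member passed 2-fold, where 6.86% of all genes did, and 2 of 30 (6.67%) passed 1.5-fold, against 18.4% of all genes.

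Footprints in replete medium had medians of KO over WT of -0.03 for SR and -0.09 for hnRNP genes, beside 0.00 for all genes. None passed 2-fold (3.03% of all genes) and 2 passed 1.5-fold (11.9% of all genes), namely Hnrnpf at 0.86 (0.54 to 1.19) and Hnrnph3 at -0.65 (-0.90 to -0.41). Hnrnpa0 at 0.23 and Hnrnpa1 at -0.50 were next to these in their family, Srsf5 at 0.36 and Srsf4 at 0.13 were the highest and Srsf3 at -0.28 and Srsf9 at -0.25 the lowest SR genes, and Srsf2 stood at 0.04. TE medians were -0.18 for SR and 0.04 for hnRNP genes, beside 0.01 for all genes. No member passed 2-fold in TE (1.38% of all genes) and 2 of 29 passed 1.5-fold (8.62% of all genes), Hnrnpf at 0.95 (0.58 to 1.32) and Srsf1 at -0.64 (-0.71 to -0.57). Srsf3 at -0.55 was next lowest, while Srsf4 at 0.57, Hnrnpr at 0.49 and Srsf2 at 0.22 were the next highest, and Hnrnpa1 at -0.38 and Hnrnpa2b1 at -0.19 the lowest hnRNP genes. For Srsf1 and Srsf3, more RNA in KO cells came with no more footprints.

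**Figure D5:**
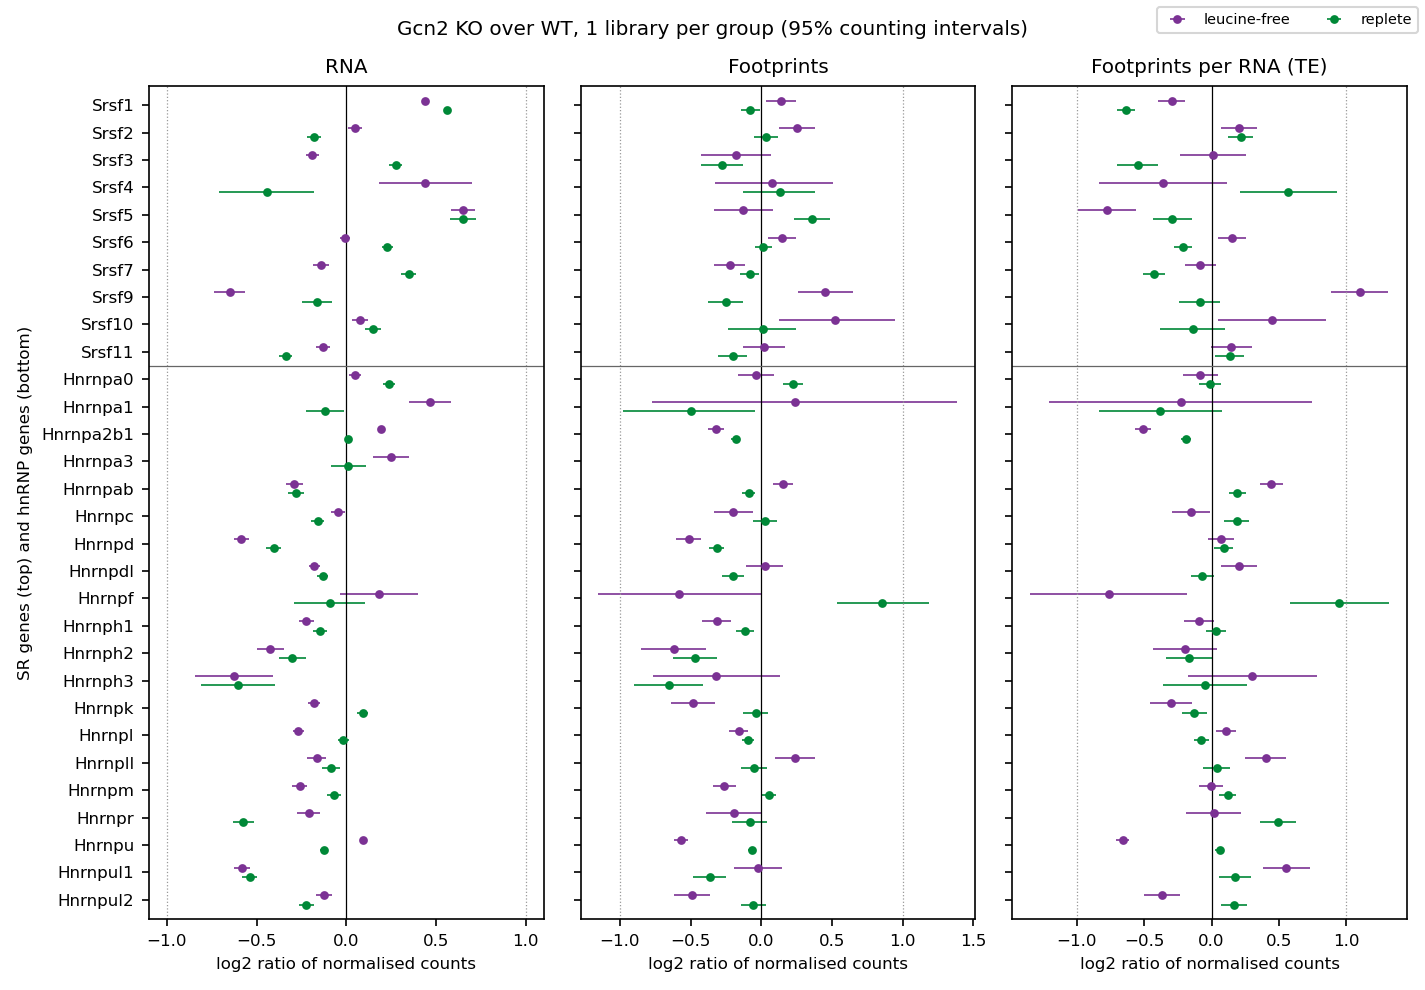
Log2 ratios of KO over WT cells for RNA, footprints and TE (left to right), for each measured member in leucine-free (purple) and replete (green) medium, with 95% counting intervals as bars and dotted lines at 2-fold. In RNA Srsf1 and Srsf5 lie right of 0 and Hnrnpd, Hnrnph2, Hnrnph3, Hnrnpr and Hnrnpul1 left of 0 in both media, and Hnrnpf changes side in footprints and TE.

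Across the 29 members measured in both assays, the RNA and footprint ratios were related weakly. Spearman's rho was -0.13 for leucine-free over replete in KO cells and -0.14 in WT cells, and 0.18 and 0.41 for KO over WT in leucine-free and replete medium. Over all 9099 genes the same values were 0.06, -0.09, 0.42 and 0.56. These are descriptions, since the points of 1 comparison share their libraries.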

How the data were processed

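RNA-seq and ribosome profiling counts were available for 4 groups of KRPC-A cells, with 1 library per group and assay. The deposited tables hold raw counts for each gene. They were made, per the file headers, with featureCounts 1.6.4 on exons of Ensembl release 96, with no option for strand or multiply mapped reads. The submitters' processing notes also name cutadapt, STAR, Subread and the build GRCm38. Per the labels, lysates held 100 µg/mL cycloheximide and footprints were made with ribonuclease I.

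Symbols were joined by Ensembl identifier, and gene class by symbol or unique synonym from RefSeq (GRCm38.p6), with mitochondrially encoded genes added. Hnrnpa1l2-ps and Hnrnpa1l2-ps2 are pseudogenes by symbol and were left out, although the second has the RefSeq class of a protein-coding gene. Counts were scaled within each assay with TMM factors (edgeR 4.0.16, R 4.3.3) over protein-coding genes with a mean count of at least 30. Log2 ratios used a prior count of 0.5. TE is the scaled footprint count over the scaled RNA count. Intervals at 95% were exact conditional binomial for a pair of libraries, Wald for TE and for KO minus WT differences, exact binomial for shares, and cover counting error only. A member passed 2-fold or 1.5-fold when its ratio reached that size and its interval excluded 0. No p-value was computed, since a group has 1 library. The interval code was tested on simulated data. Paired with the members were lists of other hnRNP-complex proteins, SR-related proteins and SR kinases, core spliceosome proteins and nonsense-mediated decay factors. Members and lists were chosen with earlier results of these data known. Named with values were members past 2-fold, the 2 highest and 2 lowest of each family in each comparison, Hnrnpa1, Srsf2 and Srsf3, and in each list any gene past 2-fold, with the highest and lowest given for part of the comparisons. Alternatives were other scalings, count minimums, a prior count of 5, removal of a length trend and leaving out each family's most counted member over all libraries together.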

Additional observations from a re-analysis of the deposited data

Results flagged for a closer look

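For 2 members the TE ratio of leucine-free over replete medium had opposite signs in KO and WT cells, with a KO minus WT difference past 2-fold. Hnrnpf differed by -1.71 on the log2 scale, from -1.07 in KO and 0.64 in WT cells, and rests on 59, 184, 49 and 142 footprints in KO leucine-free, KO replete, WT leucine-free and WT replete cells. Srsf9 differed by 1.19, from 0.53 in KO and -0.66 in WT cells, on 751, 823, 305 and 1372 footprints in the same groups, and stood at 0.99, short of 2-fold, with the length trend removed. Neither difference was tested across cultures, since each group is 1 library, and their intervals cover counting error only.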

How the results depend on the processing

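Alternatives were other scalings, count minimums of 10, 100 or none, a prior count of 5, length trend removal, and leaving out Srsf1 and Hnrnpa2b1. Signs changed for values near 0 alone, namely the SR minus hnRNP difference of medians in WT footprints (-0.04 as reported, 0.0019 without the length trend, 0.0092 without Srsf1 and Hnrnpa2b1) and the SR median TE in KO leucine-free cells (-0.06 as reported, 0.0052 with total counts). With the length trend removed, the SR minus hnRNP difference of medians in WT cells was 0.19 in RNA and -0.19 in TE, against 0.28 and -0.33. The log2 SR to hnRNP ratio was then 0.0023 in RNA for leucine in KO, 0.16 in RNA and -0.19 in TE for leucine in WT, 0.39 in RNA for KO over WT in replete medium and -0.15 in RNA for KO minus WT. Without Srsf1 and Hnrnpa2b1 it was 0.031 in RNA for leucine in KO, 0.17 in RNA for leucine in WT, 0.094 in RNA and 0.25 in TE for KO over WT in leucine-free medium, 0.23 in RNA and -0.18 in TE in replete medium, and -0.14 in RNA for KO minus WT.

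Hnrnpa1 was no longer past 2-fold in WT footprints with a mean count of at least 100 (0 members) or a prior count of 5 (0 members), nor Hnrnpf in KO footprints with total counts (0) or a prior count of 5 (0). With the length trend removed, 2 members (Hnrnpf and Hnrnpu) passed 2-fold in KO TE, and 1 (Hnrnpf) in the KO minus WT difference of TE, where Srsf9 stood at 0.99. The cause was not tested, apart from the construction of each alternative. Of 263 settings of single members, 6 moved beyond the counting interval, 5 of them for Hnrnpu. No paired analysis was possible because each group has 1 library. TE per coding length was not run. Depth limits Hnrnpa1, Hnrnpf, Srsf10, Hnrnph3 and Srsf4, which have few footprints in the WT leucine-free library.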

Other observations

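Proteins that work beside the families were described by the same ratios. Of 16 other hnRNP-complex proteins, all measured, Pcbp2, a poly(C)-binding protein, was the only one past 2-fold in any comparison. Its leucine-free over replete ratio in WT cells was -1.49 in footprints and -1.62 in TE on the log2 scale, its KO over WT ratio in leucine-free medium was 1.39 in footprints and 1.17 in TE, and its KO minus WT difference was 1.31 in footprints and 1.29 in TE. The list's median in TE was -0.34 for leucine in KO cells and -0.24 in WT cells, both with values below 0 in most members (15 and 13 of 16), beside -0.01 for all genes. In KO footprints all 16 were below 0, with Pcbp1 lowest at -0.79 and Ptbp2 highest at -0.01, beside a median of 0.003 for all genes. In RNA, Rbmx at 0.36 was highest and Cirbp at -0.26 lowest for leucine in KO cells, and Pcbp1 at 0.39 highest and Ptbp2 at -0.20 lowest in WT cells.

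Of 23 SR-related proteins and SR kinases, only Son, a large nuclear speckle protein, passed 2-fold, and only in KO over WT footprints in leucine-free medium, at -1.12. In WT cells Son footprints stood at 0.92 for leucine-free over replete, with Srpk1 lowest at -0.15. The SR kinase Clk1 was highest in RNA for leucine in KO cells, at 0.80, and Srpk2 lowest at -0.27. Tra2b, which itself carries a poison exon, was highest in WT RNA at 0.51 and lowest in WT TE at -0.53, as Srsf3 was within its family.

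Among 36 core spliceosome proteins, the U2 auxiliary factor subunit U2af1 and the Sm protein Snrpd1 passed 2-fold in TE for leucine in WT cells, at -1.34 and -1.29, and Snrpf did in KO footprints at 1.25. U2af1 differed by 1.65 in TE and 1.30 in footprints and Snrpd1 by 1.08 in TE between KO and WT leucine ratios. In TE of KO over WT, U2af1 stood at -1.10 in replete medium and Snrpb2 at 1.01 in leucine-free medium. The list's RNA median for leucine was 0.06 in KO and 0.19 in WT cells, beside -0.003 and 0.005 for all genes. In WT cells 31 of 35 measured genes were above 0, from Snrpd1 at 0.93 to Sf3b3 at -0.13. Over all genes the WT RNA ratio was lower for longer transcripts (Spearman's rho -0.38) and the WT TE ratio higher (0.33). These trends were not removed for the list.

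Of 15 nonsense-mediated decay factors, Smg5 passed 2-fold for leucine in WT cells, at 1.13 in footprints and 1.15 in TE. Smg9 passed it for leucine in KO cells, at 1.32 in RNA and -1.47 in TE, and in KO over WT replete RNA, at -1.18. In the KO minus WT difference of TE, Smg9 stood at -1.39 and Magoh at 1.18. The list's median RNA ratio for leucine was 0.11 in KO and 0.15 in WT cells, beside -0.003 and 0.005 for all genes. Upf3a was lowest at -0.15 in KO cells, and Magoh was highest at 0.56 and Smg1 lowest at -0.49 in WT cells. The trends of the WT ratios on exonic length were not removed here either. Counts past 2-fold in these lists stand beside 1.38% to 8.39% of all genes, depending on the comparison.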
